A study of Homo sapiens with 3 samples.

Results

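The 10 genes described here belong to the ID protein and bone morphogenetic protein (BMP) pathway and were looked up in EBC-1 cells, a human cell line from a squamous carcinoma of the lung, after siRNA against RAB11A. The 10 symbols were ID1, ID2, ID3, SMAD1, SMAD4, SMAD5, SMAD6, SMAD7, BAMBI and BMPR1A. They were chosen by pathway and with these values known, since the rule itself states that ID3 differed between the siRNAs. That difference is therefore given as a description. Of the 10 symbols, 7 matched a row among the 13479 genes of the deposited table. ID2, SMAD6 and SMAD7 matched no row of the values used here and have no level in this account. Of the 7, 5 had a mean of at least 5 CPM over the libraries and were counted with the 10788 genes at that level, while ID1 and BAMBI lay below it and are given by their levels.

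The study held 3 libraries of capped RNA 5′ ends (CAGE, cap analysis of gene expression), 1 for each group. EBC-1 cells had received a negative control siRNA, RAB11A siRNA 1 or RAB11A siRNA 2 by electroporation, 600 pmol in each case, and the labels give 72 h after plating. RAB11A is a small GTPase of the recycling endosome, which returns internalised receptors to the cell surface. All groups shared the same line and the same electroporation, and no library of untreated cells was analysed here. Values are CPM, tags scaled to a common library total, and because each capped transcript end gives a tag, they are not divided by gene length. Each CPM value was a whole multiple of 0.04 CPM. Tags were recovered at a total of 24999950 in each library, the lowest scanned total with the largest share of whole tags, so it is approximate. Since each group is 1 library, no difference has a replicate check, and every interval covers the counting error of tags only.

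BMPs bind paired type I and type II receptor kinases at the cell surface. The type I receptor phosphorylates SMAD1, SMAD5 and SMAD9, which enter the nucleus with SMAD4 and raise transcription of target genes, the ID genes foremost among them. ID proteins are helix-loop-helix factors without a DNA-binding region. They pair with E proteins such as TCF3 and TCF12 and keep them off DNA, which holds back differentiation in many tissues. SMAD6, SMAD7 and BAMBI are targets that dampen the pathway in turn.

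Both siRNA sequences are shown because the comparison that sets ID3 apart is the one between them. Capitals mark the bases of the sense strand that equal a target site for the seed, positions 2 to 8 of the guide strand, with the given sequences read as sense strands.
RAB11A siRNA 1: gcauccagguuGAUGGAAa
RAB11A siRNA 2: agcaagagcuuUUGCAGAa
Each 19-base sequence matched the canonical RAB11A transcript and none of those of the 7 listed members. The seed site GAUGGAA of siRNA 1 was in the 3′ UTR of none of the 7, and the site UUGCAGA of siRNA 2 was in that of SMAD4 alone. Among 11270 canonical 3′ UTRs of listed genes, 14.7% held the first site and 16% the second. The SMAD4 3′ UTR, with 6575 bases the longest of the members' 3′ UTRs, held the siRNA 2 site at bases 1226 to 1232 and 3785 to 3791 after the stop codon, shown in DNA letters with the site in capitals.
SMAD4 site 1: agaaaagTTGCAGAtgtattg
SMAD4 site 2: catcttgTTGCAGAtagctat
A match of letters is no evidence that the siRNA acted there.

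The 250 bases upstream of the RefSeq start are shown for ID3, ID1 and BAMBI, the listed members that are BMP targets, because CAGE counts transcripts at their start. The sequences come from RefSeq's GRCh38.p14 promoter table. Each matched its GRCh37 chromosome at 1 place, and the coordinates are of GRCh37, the build that hg19 names. Capitals mark GGCGCC, a GC-rich SMAD motif, CAGAC or its reverse complement GTCTG, which hold the SMAD box, and TATAA or TTATA, the core of the TATA box. The first and second motifs were set from knowledge of SMAD binding, and TATAA was added after the sequences were seen.
ID3, chr1:23885993-23886242, minus strand: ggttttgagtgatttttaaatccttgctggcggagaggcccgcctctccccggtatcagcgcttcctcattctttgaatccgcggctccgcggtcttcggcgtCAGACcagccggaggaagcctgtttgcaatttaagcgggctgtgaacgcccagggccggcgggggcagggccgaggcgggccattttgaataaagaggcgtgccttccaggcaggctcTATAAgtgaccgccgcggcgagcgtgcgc
ID1, chr20:30192842-30193091, plus strand: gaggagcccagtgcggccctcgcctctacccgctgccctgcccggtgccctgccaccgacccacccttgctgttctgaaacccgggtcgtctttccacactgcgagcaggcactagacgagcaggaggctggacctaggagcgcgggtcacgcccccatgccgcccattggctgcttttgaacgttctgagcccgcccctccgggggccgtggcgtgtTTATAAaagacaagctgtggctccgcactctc
BAMBI, chr10:28966200-28966449, plus strand: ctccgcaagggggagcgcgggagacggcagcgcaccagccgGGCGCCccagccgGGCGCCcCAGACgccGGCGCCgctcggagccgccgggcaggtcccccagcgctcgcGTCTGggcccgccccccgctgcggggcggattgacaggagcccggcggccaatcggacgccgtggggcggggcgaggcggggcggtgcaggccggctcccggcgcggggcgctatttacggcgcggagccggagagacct
ID3 held a TATAA 29 to 25 bases upstream of the start and ID1 held one 31 to 27 bases upstream, which overlaps a TTATA on the same bases but 1. BAMBI held none. ID3 also held 1 CAGAC, 147 to 143 bases upstream, and BAMBI held 3 GGCGCC and 2 CAGAC or GTCTG. ID1 held neither of these motifs in this window, and bases further upstream were not searched. Counted on both strands over the same 250-base windows of 35116 promoters, GGCGCC was in 16.4%, CAGAC in 38% and TATAA in 18.9%. The deposited table sums tags per gene, so it does not show which start was used.

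RAB11A, the target, checked the labels. Its level was 135.3 CPM in the control library, 7.48 CPM with siRNA 1 and 22.7 CPM with siRNA 2, so 5.53% and 16.8% of control remained.

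ID3 moved in opposite directions with the siRNAs. ID3 (ENSG00000117318, chr1:23884417-23885992, minus strand, 3 exons in the canonical transcript) had 481 tags in the control library, a level of 19.2 CPM with a 95% Poisson interval from 17.6 to 21.0. With siRNA 1 it had 827 tags, or 33.1 CPM (interval 30.9 to 35.4), and with siRNA 2 it had 316 tags, or 12.6 CPM (interval 11.3 to 14.1). The siRNA 1 library was the highest and the siRNA 2 library the lowest, and no interval overlapped another. Against control, ID3 was 1.72-fold (95% exact interval 1.54 to 1.93) in the siRNA 1 library and 0.657-fold (0.568 to 0.759) in the siRNA 2 library. On the log2(CPM + 1) scale, used for all log2 ratios here, these are 0.75 (counting standard error 0.079) and -0.57 (0.098). Between the siRNAs the ratio was 2.62-fold (2.30 to 2.99), or 1.32 on the log2 scale (0.090), the 13th highest of 10788 genes. This contrast chose ID3 and is no evidence for it. Because the RNA is from whole cultures, fewer cells with ID3 RNA and less of it per cell cannot be told apart.

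ID1 was a low gene in every library. ID1 (ENSG00000125968, chr20:30193086-30194318, plus strand, 2 exons in the canonical transcript) stood at 1.64 CPM in control (41 tags), 1.88 CPM with siRNA 1 (47 tags) and 0.88 CPM with siRNA 2 (22 tags). As with ID3, siRNA 1 was highest and siRNA 2 lowest. The control and siRNA 1 libraries did not differ beyond counting error, at 1.15-fold (95% exact interval 0.738 to 1.79). With siRNA 2, ID1 was 0.537-fold of control (0.304 to 0.922), and siRNA 1 was 2.14-fold above siRNA 2 (1.26 to 3.72). At this depth a rise of ID1 with siRNA 1 of the size seen for ID3, 1.72-fold, lies inside the interval.

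BAMBI, a decoy receptor that resembles a type I receptor without its kinase, stood at 1.56 CPM in control (39 tags), 2.00 CPM with siRNA 1 (50 tags) and 1.64 CPM with siRNA 2 (41 tags). Its libraries did not differ beyond counting error. Its gene (ENSG00000095739) lies at chr10:28966439-28971861 on the plus strand. Against control the folds were 1.28 (95% exact interval 0.827 to 2.00) and 1.05 (0.661 to 1.67), so the interval for siRNA 1 holds both no change and a rise of up to 2.00-fold.

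**Figure D1:**
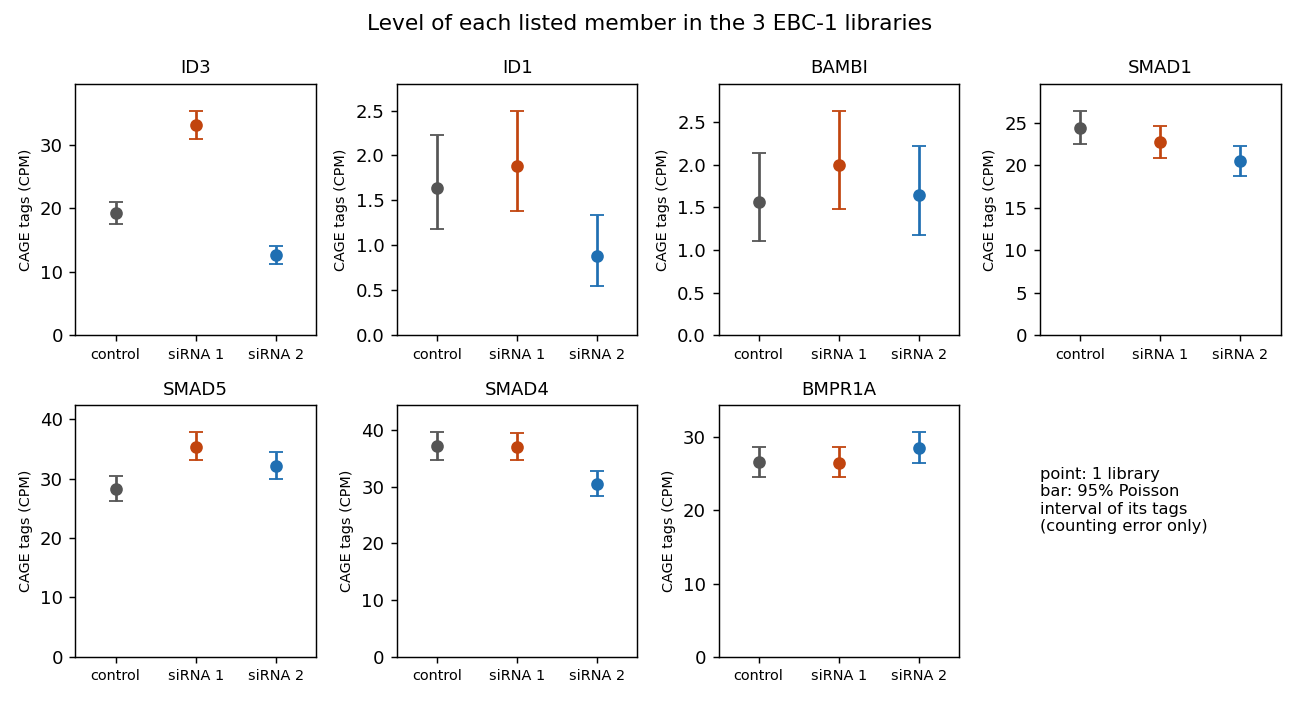
Level of the 7 listed members in CPM (vertical axes, each from 0) in the control, siRNA 1 and siRNA 2 libraries (horizontal axis). Points are single libraries and bars are 95% Poisson intervals of the tags; ID3 ranges from 12.6 to 33.1 CPM with no overlap, whereas the bars of BMPR1A and BAMBI overlap in all 3 libraries.

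The SMADs and the receptor varied less than ID3. SMAD1 (ENSG00000170365, chr4:146402346-146480328, plus strand), a receptor-activated SMAD of the BMP branch, had 610 tags in control, 567 with siRNA 1 and 511 with siRNA 2 (24.4, 22.7 and 20.4 CPM). Its fold to control was 0.929 (95% exact interval 0.828 to 1.04) for siRNA 1 and 0.838 (0.743 to 0.944) for siRNA 2, and the siRNA libraries did not differ from each other beyond counting error (1.11-fold, 0.983 to 1.25). SMAD5 (ENSG00000113658, chr5:135468534-135524435, plus strand), which acts in parallel to SMAD1, went the other way. It stood at 28.3, 35.4 and 32.2 CPM (707, 884 and 804 tags), lowest in the control library. With siRNA 1 it was 1.25-fold of control (1.13 to 1.38) and with siRNA 2 1.14-fold (1.03 to 1.26), and the siRNA libraries were 1.10-fold apart (0.998 to 1.21). The closely related SMAD1 and SMAD5 thus lay on opposite sides of control with each siRNA, by less than 1.5-fold, and for SMAD1 with siRNA 1 within counting error.

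SMAD4 (ENSG00000141646, chr18:48554898-48611415, plus strand), the common partner of BMP and TGF-beta SMADs, had its lowest level with siRNA 2. It had 928 tags in control (37.1 CPM), 925 with siRNA 1 (37.0 CPM) and 764 with siRNA 2 (30.6 CPM). The fold to control was 0.997 (95% exact interval 0.909 to 1.09) for siRNA 1 and 0.823 (0.747 to 0.907) for siRNA 2, and siRNA 1 was 1.21-fold above siRNA 2 (1.10 to 1.33). SMAD4 is also the member whose 3′ UTR holds the siRNA 2 seed sites shown above; any part of these sites in its level was not tested. Of the 20 annotated SMAD4 starts, 1 matched another place in the genome within 2 mismatches, and no start of the other listed members did. A protein-coding gene model overlaps SMAD4 on the same strand, so some tags could be shared.

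BMPR1A (ENSG00000107779, chr10:88516353-88692582, plus strand), a type I BMP receptor, did not differ between libraries beyond counting error. It stood at 26.6, 26.5 and 28.5 CPM (665, 663 and 712 tags), and its fold to control was 0.997 (95% exact interval 0.894 to 1.11) for siRNA 1 and 1.07 (0.962 to 1.19) for siRNA 2.

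Counts of members were set beside all genes at 1.5-fold, or 0.585 on the log2(CPM + 1) scale. With siRNA 1 against control, 1 of the 5 tested members was at least 1.5-fold higher (ID3), against 2.81% of all genes, and 0 were lower, against 2.56%. With siRNA 2 against control, 0 of 5 were higher, against 1.24%, and 0 were lower, against 1.85%, with ID3 just short of the threshold. Between siRNA 1 and siRNA 2, 1 of 5 was higher (ID3), against 0.899%, and 0 were lower, against 0.695%. The rule that chose the members states that ID3 differs between the siRNAs. The counts that hold ID3 therefore rest on that choice and are no evidence for the members as a set. The median log2 ratio of the 5 was -0.004 with siRNA 1, -0.25 with siRNA 2 and 0.14 between them, beside -0.03, -0.04 and 0.02 over all genes tested. A two-sided exact binomial test on the tags, which compares libraries and not conditions, called 2 of 5 members with siRNA 1 (ID3 and SMAD5), against 52.5% of all genes. It called 4 of 5 with siRNA 2 (ID3, SMAD1, SMAD4 and SMAD5), against 48.3%, and 2 of 5 between the siRNAs (ID3 and SMAD4), against 36.8%. With shares this high over all genes, these calls say little about the members.

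**Figure D2:**
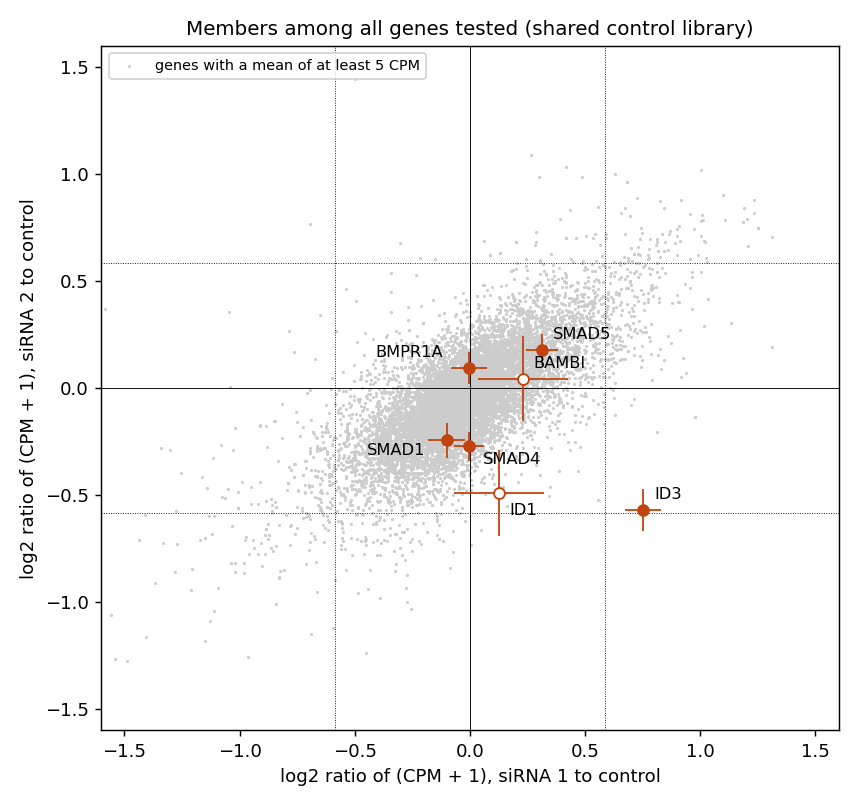
Log2 ratio of (CPM + 1) to the control library with siRNA 1 (horizontal) and siRNA 2 (vertical) for the 10788 genes tested (grey, 36 of them outside the axes) and the listed members (orange; open symbols lie below 5 CPM). Bars are 1 counting standard error and dotted lines mark 1.5-fold; ID3 sits at 0.75 and -0.57, in the quadrant higher with siRNA 1 and lower with siRNA 2, and both axes share the control library.

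Ligands and receptors upstream of the members were compared next, from lists chosen by pathway. Of 23 ligand genes, 5 were listed and 4 tested. Levels below are given in the order control, siRNA 1, siRNA 2. BMP4 had 6.92, 7.64 and 5.72 CPM, and neither ratio to control lay beyond counting error (1.10-fold, 0.894 to 1.36, and 0.827-fold, 0.658 to 1.04). The siRNA libraries did differ beyond counting error for BMP4, at 1.34-fold for siRNA 1 to siRNA 2 (exact interval 1.07 to 1.67). This was the same order as ID3, short of 1.5-fold. TGFB2, a TGF-beta ligand, was the ligand past 1.5-fold, at 13.9, 24.8 and 14.3 CPM (log2 ratio 0.79 with siRNA 1, counting standard error 0.091, and 0.04 with siRNA 2, 0.102). TGFB1 stood at 53.9, 50.3 and 50.2 CPM, and GDF1, which shares a transcript with CERS1, at 6.80, 6.92 and 8.20 CPM. Of 16 receptor and coreceptor genes, 13 were listed and 10 tested, with median log2 ratios of 0.04 and 0.01. TGFBR3, the coreceptor betaglycan, stood at 9.32, 16.1 and 12.7 CPM (0.73 with siRNA 1, counting standard error 0.109, and 0.41 with siRNA 2, 0.114), the only receptor past 1.5-fold. ACVR1, another type I receptor for BMPs, was lower with both siRNAs, at 11.9, 8.0 and 8.8 CPM (0.673-fold, 0.560 to 0.808, and 0.741-fold, 0.619 to 0.885). BMPR2, the type II BMP receptor, stood at 20.6, 21.8 and 24.3 CPM. RGMB, a BMP coreceptor, stood at 49.2, 48.1 and 43.3 CPM, ENG at 46.9, 54.8 and 46.5, and TGFBR2 at 36.2, 41.1 and 40.8.

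Among tested secreted antagonists and modulators of BMPs, FST and BMPER were at or past 1.5-fold with siRNA 1 and FST with siRNA 2. Between the siRNAs, FSTL1 was past 1.5-fold, higher with siRNA 1 (log2 ratio 0.67). Of 17 genes 9 were listed, and 7 entries, with NBL1 given by 2, were tested. All 7 were above control with siRNA 1 and 5 of 7 with siRNA 2, beside 45.1% and 41.4% of all genes tested. The median log2 ratios were 0.48 and 0.32. FST, follistatin, which binds activins and some BMPs, stood at 7.96, 12.9 and 16.96 CPM, with log2 ratios of 0.63 (counting standard error 0.118) and 1.00 (0.112). FST was thus higher with siRNA 2 than with siRNA 1, the reverse of ID3. BMPER, a BMP-binding protein, stood at 3.80, 6.2 and 5.44 CPM, and its ratio with siRNA 1 lay exactly at the threshold. It reached a mean of 5 CPM only through the siRNA libraries, so the filter favoured its place above control, and the counts and medians that include it support nothing. FSTL1, a secreted follistatin-like glycoprotein, stood at 172.0, 244.3 and 153.1 CPM, higher with siRNA 1 and lower with siRNA 2 (log2 ratios 0.50 and -0.17, counting standard errors 0.029 and 0.032). TWSG1, which forms complexes with BMPs and chordin, stood at 304.5, 365.9 and 292.7 CPM, and the larger NBL1 entry at 317.1, 432.6 and 395.7 CPM. The smaller NBL1 entry stood at 32.56, 39.48 and 34.12 CPM. FSTL3, under a mean of 5 CPM, stood at 2.28, 3.2 and 4.0 CPM. FSTL3 was past 1.5-fold with siRNA 2 (log2 ratio 0.608, counting standard error 0.176), at 1.754-fold of control (exact interval 1.255 to 2.473). For siRNA 1 its interval held no change (1.404-fold, 0.9868 to 2.007). The ratios of both siRNAs rest on 1 shared control library.

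Among tested regulators of SMAD proteins, NEDD4L and SKIL were past 1.5-fold, both with siRNA 1. Of 28 genes 27 were listed and 25 tested, and 8 lay above and 17 below control with siRNA 1, and 10 above and 15 below with siRNA 2. These are 32% and 40% above, beside 45.1% and 41.4% of all genes tested. NEDD4L, a ubiquitin ligase for activated SMADs, was higher, at 74.6, 129.8 and 104.6 CPM (log2 ratios 0.79, counting standard error 0.041, and 0.48, 0.043). SKIL, a SMAD corepressor, stood at 33.4, 21.3 and 31.6 CPM (-0.63, 0.077, and -0.08, 0.070). SKI, under a mean of 5 CPM, stood at 2.24, 1.16 and 2.00 CPM and lay at the threshold with siRNA 1. Its fold to control was 0.518 (95% exact interval 0.319 to 0.825) for siRNA 1 and 0.893 (0.597 to 1.33) for siRNA 2. SMURF2, a ubiquitin ligase for SMADs and their receptors, stood at 207.1, 250.6 and 245.0 CPM, STUB1 at 140.6, 127.4 and 156.4, and FKBP1A, which binds type I receptors, at 265.0, 235.4 and 261.0. SMAD2 and SMAD3, the receptor-activated SMADs of the TGF-beta branch, stood at 28.8, 27.6 and 27.8 CPM and at 21.9, 29.5 and 27.1 CPM. SMAD3 was 1.35-fold of control (95% exact interval 1.21 to 1.51) for siRNA 1 and 1.24-fold (1.11 to 1.39) for siRNA 2, above control in both libraries as SMAD5 was.

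Other BMP targets whose mean reached 5 CPM stayed within 1.5-fold. Of 23 target genes, with ID1, ID3 and BAMBI among them, 12 were listed and 5 tested. Of the 5 tested, ID3 was the one past 1.5-fold in any comparison. DLX2, a homeobox factor with a mean under 5 CPM, stood at 5.88, 2.76 and 4.40 CPM, or 0.469-fold of control for siRNA 1 (95% exact interval 0.347 to 0.629) and 0.748-fold for siRNA 2 (0.579 to 0.965). Also under 5 CPM, ID1 was past the threshold between the siRNAs (log2 ratio 0.61, counting standard error 0.199), and HEY1, at 0.80, 0.28 and 0.20 CPM, reached it with siRNA 2 (lower than control). MSX1, a homeobox factor, stood at 10.2, 11.2 and 10.7 CPM, and GATA2 at 32.1, 27.3 and 26.4 CPM. RUNX2 stood at 7.52, 6.72 and 5.12 CPM, or 0.894-fold of control with siRNA 1 (0.721 to 1.11) and 0.681-fold with siRNA 2 (0.540 to 0.857). Among TGF-beta targets, COL4A1, a basement membrane collagen, stood at 20.3, 28.4 and 15.3 CPM, or 0.47 (counting standard error 0.080) and -0.39 (0.092). TGFBI stood at 5.12, 8.16 and 4.44 CPM. Both COL4A1 and TGFBI were past 1.5-fold between the siRNAs, higher with siRNA 1 (log2 ratios 0.86 and 0.75). CTGF, a matricellular protein, had 31.0, 39.9 and 48.4 CPM and was highest with siRNA 2, where it lay past 1.5-fold (0.63, with 0.35 for siRNA 1). JUNB stood at 170.1, 153.8 and 146.9 CPM, and TGIF1 at 91.2, 83.0 and 81.0.

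Tested partners of ID proteins stayed within 1.5-fold. Of 16 genes 12 were listed and 8 tested, and 37.5% of the 8 lay above control with siRNA 1 and 25% with siRNA 2, beside 45.1% and 41.4% of all genes tested. TCF3, the E protein E2A, stood at 52.7, 47.4 and 37.6 CPM (0.901-fold, 95% exact interval 0.832 to 0.975, and 0.714-fold, 0.656 to 0.777). TCF12, another E protein, stood at 57.4, 46.3 and 48.3 CPM. ETS1, whose activity on the CDKN2A promoter ID1 can oppose, stood at 336.9, 340.2 and 272.3 CPM. TCF3 and ETS1 were thus lowest with siRNA 2, as ID3 was, while TCF12 was lowest with siRNA 1. Between the siRNAs, 3 of the 8 tested partners were higher with siRNA 1 and 5 were lower. That is 37.5% higher, beside 55% of all genes tested. Of the partners under a mean of 5 CPM, BHLHE41 stood at 2.88, 2.20 and 3.96 CPM. It was past the threshold between the siRNAs, lower with siRNA 1 (log2 ratio -0.63, counting standard error 0.177). HEY1, described above, is also on this list. Among 5 genes that set ID protein stability, CDC20, an activator of the anaphase-promoting complex, stood at 132.8, 193.2 and 122.0 CPM (0.54 and -0.12). CDC20 was past 1.5-fold between the siRNAs, higher with siRNA 1 (0.66). FZR1 stood at 69.6, 69.8 and 58.1 CPM, and COPS5 at 117.8, 112.1 and 103.5. The 4 tested CDK inhibitors were all within 1.5-fold, with CDKN2A at 234.5, 236.6 and 217.4 CPM, and CDKN1A at 48.0, 39.4 and 46.0. CDKN1B had 531, 564 and 500 tags in the same order. Another 3 were listed under a mean of 5 CPM. Of these, CDKN2C stood at 1.76, 5.36 and 2.40 CPM, or 3.05-fold of control for siRNA 1 (95% exact interval 2.15 to 4.39) and 1.36-fold for siRNA 2 (0.909 to 2.06). CDKN2B stood at 5.56, 3.56 and 2.56 CPM, or 0.640-fold (0.485 to 0.842) and 0.460-fold (0.337 to 0.623). CDKN2D, at 4.16, 4.88 and 4.56 CPM, did not differ beyond counting error.

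**Figure D3:**
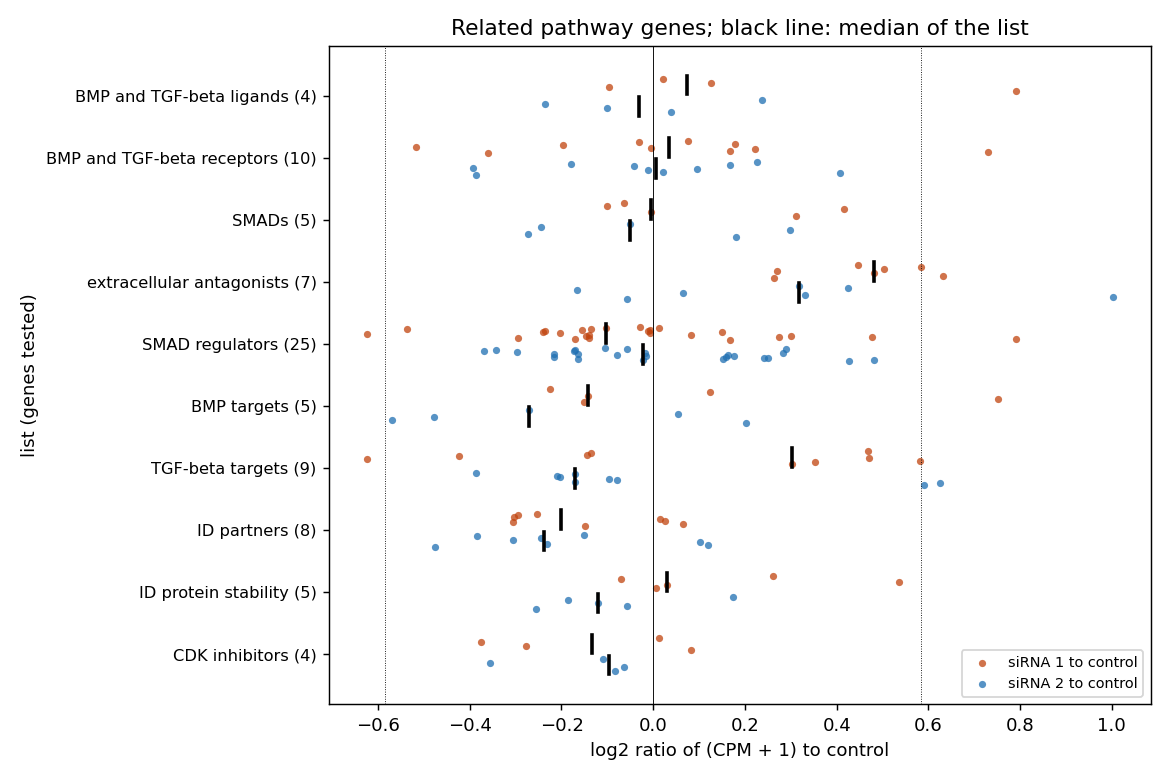
Log2 ratio of (CPM + 1) to control (horizontal axis) for each tested gene of the related lists (rows, number tested in brackets), with siRNA 1 in orange and siRNA 2 in blue. Black lines are list medians and dotted lines mark 1.5-fold. The antagonist list has medians of 0.48 and 0.32, while those of the SMADs and receptors lie near 0. The antagonist medians hold 2 NBL1 entries and BMPER, which reached a mean of 5 CPM only through the siRNA libraries, so they support nothing.

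Genes most like ID3 and ID1 were taken by the smallest distance in the pair of log2 ratios to control, over 3 libraries, among 9141 other genes whose mean reached 10 CPM. For ID3 they were TNFRSF11B, the decoy receptor osteoprotegerin (distance 0.20, 24.8, 36.9 and 16.96 CPM), COL4A1 (0.34) and MAP3K14, a kinase of the noncanonical NF-kB pathway (0.37, 25.7, 45.9 and 22.2 CPM). For ID1 they were ZSWIM4 (0.03), H2AFY2, a macroH2A histone variant (0.05), and H1F0, a linker histone (0.06), distances smaller than the counting standard error of ID1 itself, 0.201 with siRNA 2.

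Markers of the cells were also read. Of 5 epithelial markers 4 were listed and 3 tested. CDH1 matched no row, and EPCAM, with a mean under 5 CPM, stood at 4.20, 4.28 and 3.72 CPM. KRT8 and KRT18, simple epithelial keratins, stood at 328.2, 357.9 and 328.9 CPM and at 385.8, 475.0 and 394.1 CPM. KRT19, another of them, had 109.3, 175.4 and 151.6 CPM and was past 1.5-fold with siRNA 1 (0.68 on the log2 scale, and 0.47 with siRNA 2). None of 7 squamous markers, TP63, KRT5 and SOX2 among them, matched a row, and the squamous label was not checked by them. Of 6 fibroblast markers 2 were listed, with a summed level of 2.84, 3.32 and 2.60 CPM. None of 4 endothelial markers matched a row, and of 5 leukocyte markers only CD68, a lysosomal glycoprotein, did, at 45.2, 21.1 and 31.4 CPM. The part of other cells in the results was not tested.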

How the data were processed

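The authors deposited CPM per gene and strand, in 1 table with a column for each of the 3 CAGE libraries, and each column was matched to its sample by name. Per the submitters' processing notes, BWA and HISAT2 were used with build hg19. The sources used here give no role for these tools, no annotation and no rule for tags with several matches. Whole tags were recovered from the deposited CPM: 100.0% of values in each library were whole within 0.13 tags, at a total of 24999950 tags per library. That total is the lowest of those scanned with the largest share of whole tags, so its last digits depend on the tolerance. A gene at 5 CPM rests on 125 tags. Summed over genes, the tags came to 25174787 in control, 25204585 with siRNA 1 and 25137457 with siRNA 2, above that total, and neither this nor the equal totals were explained by these sources.

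From these values log2 ratios of (CPM + 1) were computed, with Poisson standard errors, exact binomial intervals of the tag ratio (95%, Clopper-Pearson) and Poisson intervals of levels. A pseudocount of 1 CPM shrinks the ratios of low genes. Genes whose mean reached 5 CPM were tested against 1.5-fold, with no p-value because each group has 1 library. An exact binomial test on recovered tags with Benjamini-Hochberg adjustment across all genes, at 0.05, called 5661, 5213 and 3968 genes for siRNA 1 and siRNA 2 against control and for siRNA 1 against siRNA 2. The members and lists were chosen with earlier results of these data known. Named genes were the members, RAB11A, the 3 highest genes of each list and those tested and past 1.5-fold in any comparison, and the 3 genes nearest ID1 and ID3. BMP4, ACVR1, BMPR2, SMAD3, SKI, RUNX2, DLX2, HEY1, CDKN2B, CDKN2C, CDKN2D, BHLHE41, FSTL3, the smaller NBL1 entry and the markers were named after their values were seen. The scripts were tested on simulated tags. Positions and 3′ UTRs are from the GENCODE annotation on GRCh37, which held 13163 of 13479 identifiers. All 7 listed members had a RefSeq promoter entry. Annotated starts were searched for copies, over their first bases, with minimap2. The alternatives changed the pseudocount (0.5 or 5 CPM) or the minimum mean (1 or 20 CPM, or none), or used a 2-fold threshold, the binomial test, TMM from edgeR 4.0.16 and median-of-ratios scaling. Work was done in Python 3.11.15 with scipy 1.17.1, pandas 2.3.3 and matplotlib 3.10.9, and in R 4.3.3. A gene of the TGF-beta target list is not reported here.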

Additional observations from a re-analysis of the deposited data

Results flagged for a closer look

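ID3 was higher with siRNA 1 and lower with siRNA 2 than in the control library, each beyond its 95% counting error, with a log2 ratio of 1.32 between the siRNAs. Since each group is 1 library, the difference was not tested over samples. The same opposite directions were seen for TNFRSF11B (1.08 between the siRNAs), MAP3K14 (1.02), COL4A1 (0.86), FSTL1 (0.67), CDC20 (0.66), H1F0 (0.56) and TWSG1 (0.32). For TWSG1 the siRNA 2 ratio was -0.06 (counting standard error 0.024) and came to -0.01 under TMM and median-of-ratios scaling, within counting error, so its opposite direction is lost there. STUB1 was lower with siRNA 1 and higher with siRNA 2 (-0.29). TNFRSF11B, MAP3K14, COL4A1 and H1F0 had been named for their likeness to ID3 or ID1, so their direction follows from that choice. Only the members, RAB11A and the genes named by level, fold or likeness were screened for opposite directions. The share of all genes with opposite directions was not counted, so how common they are is not known here.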

How the results depend on the processing

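No paired analysis was possible because each group has 1 library, and no library could be left out for the same reason. Of 156 member values recomputed, 1 moved beyond its 95% counting error, the ID3 ratio between the siRNAs, 1.11 with a pseudocount of 5 CPM, and 0 called values reversed. The 156 include values under each changed minimum mean, which leaves a ratio as it was. Those values could not move, so only the pseudocounts, the scalings and the raw tag ratios checked the member values. BMPR1A and SMAD4 with siRNA 1, both near 0, changed sign under TMM and median-of-ratios scaling (0.02 in each case). ID3 with siRNA 2 passed 1.5-fold with a pseudocount of 0.5 CPM, so that 1 member was lower. Between the siRNAs 2 members, ID3 and ID1, were higher with a minimum mean of 1 CPM or no filter. At 2-fold, 0 members were higher with siRNA 1 than in control. The binomial test called 2 members higher with siRNA 1, 1 higher and 3 lower with siRNA 2, and 2 higher between the siRNAs.

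Counts over all genes were, as higher and lower, 303 and 276 with siRNA 1, 134 and 200 with siRNA 2, and 97 and 75 between the siRNAs. In that order they were 191 and 161, 86 and 115, and 41 and 48 with a pseudocount of 5 CPM. With a minimum mean of 20 CPM they were 188 and 151, 75 and 104, and 43 and 31. At 2-fold they were 40 and 56, 21 and 29, and 18 and 20. By the binomial test they were 2518 and 3143, 1983 and 3230, and 2312 and 1656. With a minimum mean of 1 CPM, 132 were lower between the siRNAs. Without a filter 420 were lower with siRNA 1, 206 higher and 316 lower with siRNA 2, and 154 higher and 147 lower between the siRNAs. Fewer or more genes are counted by construction under each filter and fold. Depth limits ID1 and BAMBI, which rest on 22 to 50 tags a library. With 1 library a group, differences between siRNAs, cultures and libraries cannot be told apart.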
